A study of Mus musculus with 4 samples.

Results

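Genes of fatty acid oxidation and of the peroxisome were compared between kidneys of mice that lack Usp2, a ubiquitin-specific protease, and kidneys of wild-type littermates. The set was a list of 35 genes, chosen with earlier results of the same arrays known. For each gene the array row with that single gene symbol was taken. Hadhb was the 1 member with more than 1 row, and its row of the highest mean was used. All 35 were measured, out of 19934 genes in the table. They comprised 17 mitochondrial proteins of fatty acid oxidation, 8 peroxisomal enzymes, Eci2, which works in both compartments, 6 genes that respond to PPAR receptors or cleave acyl-CoA, and 3 peroxins.

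Whole kidneys were taken from C57BL6/N males aged 12 weeks at Zeitgeber time 12, which is the daily peak of Usp2 expression according to the labels, after 3 weeks of equal light and dark phases of 12 h each. The groups were Usp2-KO and WT, both untreated as far as the labels say, and the labels do not give the Usp2 allele or the exons removed. The mice were 6 littermate pairs, and their RNA was pooled by 3 mice into 2 pools for each genotype, so that pool 1 and pool 2 of Usp2-KO had littermate pools of the same number in WT. Each pool was hybridised to 1 array, and its values are log2 expression, so a difference of 1 is a doubling.

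Most ATP of the kidney tubule, above all of the proximal tubule, comes from the oxidation of fatty acids. Long-chain fatty acids enter mitochondria by the carnitine shuttle and are shortened there by a cycle of oxidation, hydration, a further oxidation and thiolysis, with electrons passed to the respiratory chain by the electron transfer flavoprotein. Peroxisomes shorten very long and branched chains with their own oxidases, multifunctional proteins and thiolases, and peroxins build the organelle and import its proteins. PPARA, a nuclear receptor for fatty acids, drives many genes of both routes.

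Promoter sequences are shown for the electron transfer genes, which held the largest difference and a small one in the same protein complex, and for Acaa1a and Acaa1b, the peroxisomal thiolase paralogs. Each is the 200 bases before the annotated start, read 5′ to 3′ on the strand of the gene, from RefSeq (GRCm38.p6). Capitals mark the CCAAT box (CCAAT or ATTGG) and the GC box (GGGCGG or CCGCCC). The windows are chr9:55512244-55512443 on the minus strand for Etfa, chr7:43443872-43444071 on the plus strand for Etfb, chr3:79628768-79628967 on the minus strand for Etfdh, chr9:119341094-119341293 on the plus strand for Acaa1a and chr9:119157094-119157293 on the minus strand for Acaa1b.
Etfa: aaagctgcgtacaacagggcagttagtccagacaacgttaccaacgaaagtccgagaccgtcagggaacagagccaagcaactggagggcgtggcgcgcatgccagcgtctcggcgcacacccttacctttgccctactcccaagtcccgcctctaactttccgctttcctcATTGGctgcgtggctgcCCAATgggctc
Etfb: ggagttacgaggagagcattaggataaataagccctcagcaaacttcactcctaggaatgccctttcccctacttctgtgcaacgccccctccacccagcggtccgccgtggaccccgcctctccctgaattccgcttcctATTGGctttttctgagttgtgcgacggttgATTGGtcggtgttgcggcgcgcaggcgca
Etfdh: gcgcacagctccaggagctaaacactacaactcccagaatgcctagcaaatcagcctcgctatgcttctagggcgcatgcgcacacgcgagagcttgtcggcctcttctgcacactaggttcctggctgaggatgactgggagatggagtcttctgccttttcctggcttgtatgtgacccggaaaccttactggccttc
Acaa1a: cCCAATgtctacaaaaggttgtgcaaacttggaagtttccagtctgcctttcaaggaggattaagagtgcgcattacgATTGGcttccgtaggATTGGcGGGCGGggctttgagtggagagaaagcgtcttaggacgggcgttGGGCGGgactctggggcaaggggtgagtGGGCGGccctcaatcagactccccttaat
Acaa1b: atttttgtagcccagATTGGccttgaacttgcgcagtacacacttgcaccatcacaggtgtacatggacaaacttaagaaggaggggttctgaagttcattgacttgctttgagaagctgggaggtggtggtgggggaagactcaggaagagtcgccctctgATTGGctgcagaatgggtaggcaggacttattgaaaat
The Etfa and Etfb stretches each held 2 CCAAT boxes and no GC box, and the Etfdh stretch held neither. Acaa1a had 3 GC boxes, 3 CCAAT boxes and 10 CG pairs, whereas Acaa1b had no GC box, 2 CCAAT boxes and 2 CG pairs. These counts cover the printed stretches alone. In the longer windows counted in the next paragraph, a GC box was found for Etfb and Etfdh but not for Etfa. A CCAAT box was found there for Etfdh too.

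Of the 35 members, 30 had a RefSeq promoter window of 300 bases, from 250 before to 50 after the start (Decr1, Acaa2, Hsd17b4, Angptl4 and Vnn1 had none). The direct repeat to which PPAR and RXR receptors bind as a pair, the hexamer AGGTCA written in tandem with any 1 base between, was searched on both strands and found in 0 of the 30, and in 0.0481% of the 27025 genes of the table. Only this exact spelling was searched, within 300 bases. At so low a share most sets of 30 genes would hold 0, so the count does not show that the members lack such elements. The single hexamer AGGTCA, which is the unit of that repeat, was found in 6 of 30 (Cpt1a, Acadm, Acadvl, Echs1, Scp2 and Plin2), or 20.0%, against 18.1% of all genes. GC boxes were found in 23 of 30 windows, or 76.7%, against 38.2% of all genes, and CCAAT boxes in 15 of 30, or 50%, against 41.1%. The hexamer, the GC box and the CCAAT box were chosen for search after the repeat had been looked for. The 30 windows had a median G and C content of 59.5%, against 52.75% for all genes of the table.

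The 2 groups could be told apart by Usp2 itself, with log2 values of 11.63 and 11.71 in the WT pools and 7.65 and 7.60 in the Usp2-KO pools. The difference was -4.04 (SE 0.073, limma adjusted p = 2.8e-08). The 14 proximal tubule markers examined, among them Lrp2, Slc34a1 and Slc22a6, had a mean log2 level of 13.07, 13.07, 13.09 and 13.07 in WT pools 1 and 2 and Usp2-KO pools 1 and 2, and a median difference of 0.019. In whole kidney, fewer cells of a type and less RNA per cell cannot be told apart. The labels do not say that the pools differ otherwise, and p-values measure the spread between pools of mice, not between mice.

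No member passed an adjusted p under 0.05 in limma (0 of 35, against 0.00502% of all genes tested, which is Usp2 alone). At an unadjusted p under 0.05, 1 member was higher in Usp2-KO kidney, the electron transfer gene Etfa, and 0 were lower, against 5.22% and 3.88% of all genes. With the littermate pools as a block the count was also 0 of 35, against 0.768% of all genes. In that fit the variance of a gene came mainly from a value shared over all genes. The differences ran from -0.076 for Decr2 to 0.33 for Etfa, with a median of 0.0645, where that of all genes was -0.006 and that of genes above the median signal 0.014. For 34 members the 95% confidence interval included 0, and these intervals lay within -0.26 and 0.41.

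Although single genes did not pass, the members' values were not spread evenly around 0. Of the 35 members 28 had a difference above 0, or 80% of them, where 47.5% of all genes and 56.2% of the 9966 genes above the median signal did. Both Usp2-KO pools lay above both WT pools for 15 members, or 42.9%, against 19.8% of all genes and 26.5% of those above the median signal. For 0 members did both Usp2-KO pools lie below both WT pools, against 19.1% of all genes and 13.2% of those above the median signal. The members' signal was not matched, with a mean log2 level in WT pool 1 of 10.66 against 9.40 for the genes above the median signal. These shares describe a list chosen with earlier results of the same arrays known and carry no test.

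**Figure D1:**
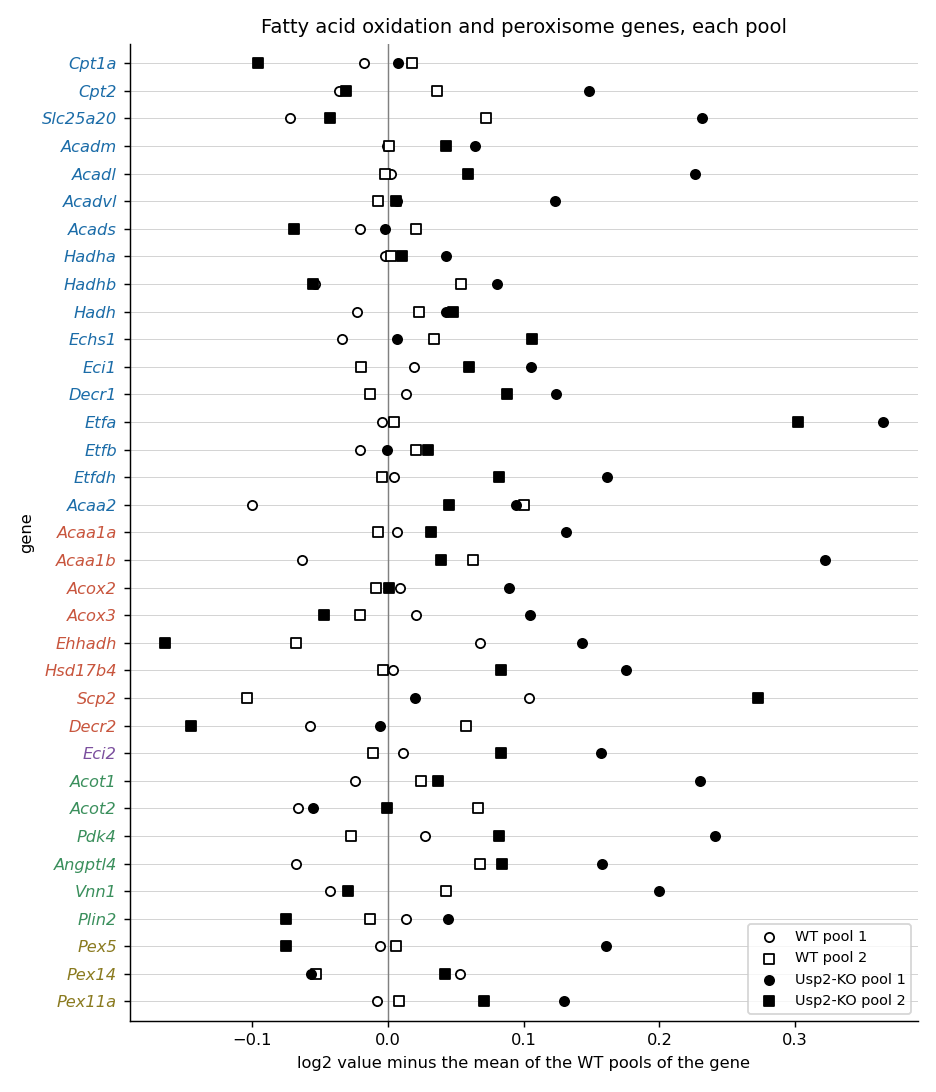
Log2 value of each of the 35 genes in each pool minus the mean of its WT pools (x axis), with genes in rows coloured by class (mitochondrial, blue, peroxisomal, red, Eci2, purple, PPAR-responsive and other, green, peroxins, olive). Open symbols are WT and filled symbols Usp2-KO, circles pool 1 and squares pool 2; the filled circle is the highest of the 4 for 25 genes, and for Etfa both filled symbols stand apart from the WT pools.

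The 4 pools did not contribute alike to these shares. Usp2-KO pool 1 held the highest of the 4 values for 25 of the 35 members, or 71.4%, against 25.1% of all genes and 33.6% of those above the median signal. Usp2-KO pool 2 held it for 4 members, WT pool 2 for 5 and WT pool 1 for 1, against 24.7%, 27.1% and 22.4% of all genes in that order. The lowest value was in WT pool 1 for 15 members, WT pool 2 for 11, Usp2-KO pool 2 for 8 and Usp2-KO pool 1 for 1. Of genes above the median signal, 30.9%, 22.6%, 34% and 11.8% had their lowest value there, in that order. In the pool 1 littermates the median Usp2-KO minus WT difference of the members was 0.116, and 33 of 35 were above 0. In the pool 2 littermates it was 0.013, and 21 of 35 were above 0. For all genes, 54% of differences in pool 1 and 46.5% in pool 2 were above 0, and for those above the median signal, as all members are, 70.4% and 45.3%. Without Usp2-KO pool 1 the members' median was 0.037, and without Usp2-KO pool 2 it was 0.123. It was 0.053 without WT pool 1 and 0.0685 without WT pool 2.

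Markers of other cell types also differed between the pools. For the collecting duct list, values were higher in Usp2-KO pools, with a median difference of 0.186 and littermate medians of 0.2325 and 0.1245. Both Usp2-KO pools lay above both WT pools for 5 of 6 genes, against 19.8% of all genes and 26.5% of those above the median signal. Usp2-KO pool 1 was highest for 5, against 25.1% of all genes. Of the 6 genes 0 passed in limma. At an unadjusted p under 0.05, 4 were higher, against 5.22% of all genes, and 1 passed with the littermate block, against 0.768%. Their mean log2 level was 9.85 in both WT pools and 10.06 and 10.01 in the Usp2-KO pools. The 6 thick ascending limb markers had mean levels of 11.69 in both WT pools and 11.78 and 11.73 in the Usp2-KO pools. Their median difference was 0.0785, and for 4 of them both Usp2-KO pools lay above both WT pools, against the same 19.8% and 26.5%. All 7 measured markers of the exocrine pancreas were lower, with a median difference of -0.15. Their mean levels were 6.69 and 6.65 in WT and 6.53 and 6.56 in Usp2-KO pools, below the array median of 7.44 to 7.46. The 5 skeletal muscle and 4 endothelial markers also all had a fitted difference below 0, with medians of -0.0625 and -0.057. Both Usp2-KO pools lay below both WT pools for 1 of these 5 and 0 of these 4, against 19.1% of all genes. In the pool 1 littermates all 4 endothelial markers were higher in Usp2-KO, and their littermate medians were 0.051 in pool 1 and -0.184 in pool 2.

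The mean level of the fat cell markers was lowest in Usp2-KO pool 1. Their mean log2 level over 9 of 10 listed genes, among them Adipoq, Plin1 and Lipe, was 8.02 and 8.01 in the WT pools, 7.67 in Usp2-KO pool 1 and 7.95 in Usp2-KO pool 2, and 7 of 9 were lower in Usp2-KO kidney. Of these, 0 passed in limma, and 3 were lower at an unadjusted p under 0.05, against 3.88% of all genes. With the littermate block 3 passed, against 0.768% of all genes. The 6 brown fat markers, among them Ucp1, had mean levels of 6.77 and 6.87 in WT and 6.72 and 6.91 in Usp2-KO pools. The part of any of these cell types in the members' values was not tested.

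**Figure D2:**
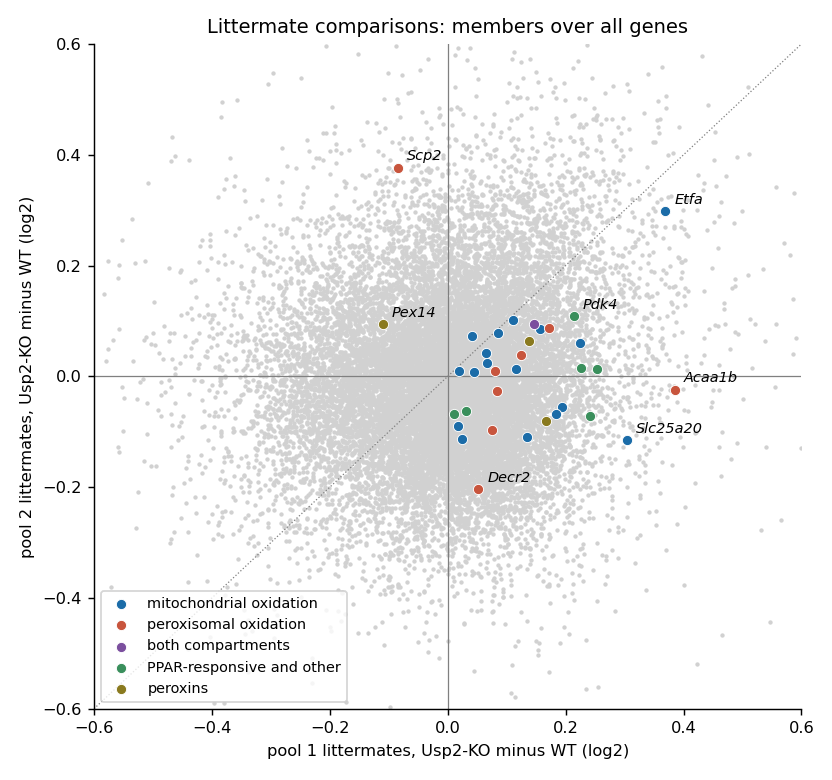
Usp2-KO minus WT log2 difference in the pool 1 littermates (x axis) against that in the pool 2 littermates (y axis), for all genes within the axes (grey) and for the 35 members coloured by class; the dotted line marks equal differences. Members lie to the right of the vertical zero line in 33 of 35 cases and spread around the horizontal zero line, and Etfa is away from 0 in both comparisons.

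The carnitine shuttle carries long-chain fatty acids into the mitochondrion. Cpt1a, the regulated enzyme at the outer membrane, had log2 values of 12.62 and 12.66 in WT and 12.65 and 12.54 in Usp2-KO pools, a difference of -0.044 (SE 0.074). The groups overlapped, with Usp2-KO pool 2 lowest. Slc25a20, the carnitine-acylcarnitine carrier of the inner membrane, had 9.99 and 10.14 in WT and 10.30 and 10.02 in Usp2-KO pools, a difference of 0.0945 (SE 0.10). Cpt2, which restores the acyl-CoA inside, had 11.87 and 11.94 in WT and 12.05 and 11.87 in Usp2-KO pools, a difference of 0.0585 (SE 0.083). For both, Usp2-KO pool 1 was the highest and Usp2-KO pool 2 lay among the WT pools. The littermate differences of Slc25a20 were therefore of opposite sign, 0.30 in pool 1 and -0.115 in pool 2, and those of Cpt2 were 0.18 and -0.067.

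The acyl-CoA dehydrogenases, which begin each mitochondrial cycle, differ in the chain length they take. Acadl, the long-chain enzyme, had log2 values of 10.76 and 10.75 in WT and 10.98 and 10.81 in Usp2-KO pools, so that the groups did not overlap, with a difference of 0.14 (SE 0.080, limma adjusted p = 0.638). Acadm, the medium-chain enzyme, also did not overlap, with 12.30 in both WT pools, 12.36 and 12.34 in the Usp2-KO pools, and a difference of 0.0535 (SE 0.070). Acadvl, for very long chains, differed by 0.0645 and Acads, for short chains, by -0.036. In Acadvl, Usp2-KO pool 1 had 9.91 while the other pools lay between 9.78 and 9.79. In Acads the groups overlapped, and both littermate differences were small, 0.018 and -0.09.

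Members of the later mitochondrial steps differed little. Hadha and Hadhb, the subunits of the trifunctional protein that completes the cycle for long chains, differed by 0.0265 (SE 0.070) and 0.0125 (SE 0.081). The other row of Hadhb gave 0.018. Echs1, the short-chain hydratase, differed by 0.0565 and Hadh, the short-chain hydroxyacyl-CoA dehydrogenase, by 0.0455. Hadh had 13.23 and 13.27 in WT and 13.29 and 13.30 in Usp2-KO pools, so its groups did not overlap by a narrow margin. Acaa2, the mitochondrial thiolase, differed by 0.0695, within a WT group that itself ran from 11.96 to 12.16.

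Unsaturated chains need auxiliary enzymes that move or reduce double bonds. Of these, Decr1 and Eci1 were among the members with the most even littermate differences. Decr1, the mitochondrial dienoyl-CoA reductase, had 10.70 and 10.67 in WT and 10.81 and 10.77 in Usp2-KO pools, with littermate differences of 0.11 and 0.101 and a fitted difference of 0.1055 (SE 0.070, limma adjusted p = 0.698). Eci1, the mitochondrial enoyl-CoA isomerase, had 10.03 and 9.99 in WT and 10.12 and 10.07 in Usp2-KO pools, with littermate differences of 0.086 and 0.079. Eci2, its relative in both compartments, had 9.50 and 9.48 in WT and 9.65 and 9.57 in Usp2-KO pools, a difference of 0.12 (SE 0.072). In all of these genes both Usp2-KO pools lay above both WT pools. Decr2, the peroxisomal reductase, had 11.23 and 11.35 in WT and 11.28 and 11.14 in Usp2-KO pools, and its difference of -0.076 (SE 0.082) was the lowest of the members. Its groups overlapped, and its littermate differences were uneven, 0.052 in pool 1 and -0.203 in pool 2.

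Electron transfer flavoprotein takes electrons from the acyl-CoA dehydrogenases and hands them to its dehydrogenase in the inner membrane. Etfa, its alpha subunit, had log2 values of 9.66 and 9.67 in the WT pools and 10.03 and 9.97 in the Usp2-KO pools. The groups were far apart for this gene relative to the gaps within them, and it was the member with the smallest p. The difference was 0.33 (SE 0.071, 95% confidence interval 0.17 to 0.49), or 1.26-fold, with littermate differences of 0.37 and 0.30. Its unadjusted limma p of 0.00116 ranked 73 among 19934 genes, and its adjusted p was 0.286. With the littermate block the adjusted p was 0.0592, and over 14 alternatives it ran from 0.0592 to 0.614. An exact two-sided permutation test over the 4 arrays gave p = 0.333, the smallest value it can give.

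The partners of Etfa did not share this size of difference. Etfb, the beta subunit, had 12.51 and 12.55 in WT and 12.53 and 12.56 in Usp2-KO pools, a difference of 0.0145 (SE 0.070, 95% confidence interval -0.15 to 0.17). Etfdh, the dehydrogenase that receives the electrons, had 10.39 and 10.38 in WT and 10.55 and 10.47 in Usp2-KO pools, a difference of 0.12 (SE 0.072, limma adjusted p = 0.65). The differences between these genes were not tested.

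Etfa lies on chromosome 9, as Usp2 does, in the gene order of GRCm38.p6, with 149 measured genes between them. Of those 149 genes, 42 had an unadjusted limma p under 0.05, or 28.2%, 20 of them with a positive and 22 with a negative difference, against 9.11% of all genes. Of the other 1016 measured genes of the chromosome, 101 or 9.94% did. Among the 10 nearest measured genes on each side of Etfa, 1 was higher and 2 were lower at that threshold, with a median difference of -0.032. The other members on chromosome 9, Slc25a20, Acaa1b and Acaa1a, lie 605, 708 and 714 places from Usp2. The labels give C57BL6/N as the strain of all pools and do not describe the DNA that flanks Usp2 in either genotype. Whether flanking DNA or the position of Etfa has a part in its value was not tested.

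**Figure D3:**
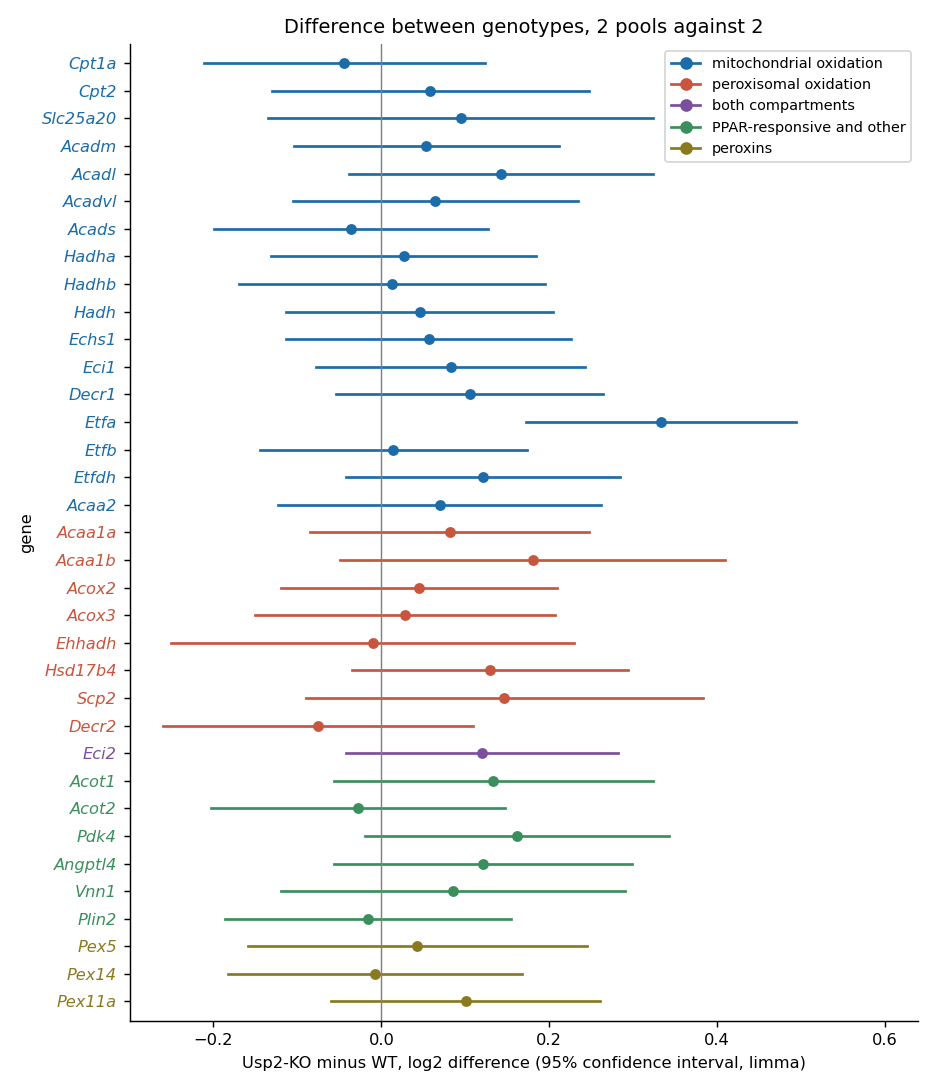
Usp2-KO minus WT difference of each of the 35 genes on the log2 scale (points) with the 95% confidence interval of the limma fit (lines), 2 pools against 2, coloured by class. The interval of Etfa, 0.17 to 0.49, is the 1 interval that does not include 0.

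Peroxisomal oxidation starts with oxidases that pass electrons to oxygen. Acox2, which acts on branched chains and bile acid precursors, had 10.54 and 10.52 in WT and 10.62 and 10.53 in Usp2-KO pools, a difference of 0.045 (SE 0.072). Acox3, another branched-chain oxidase, differed by 0.0285 (SE 0.079). In both genes Usp2-KO pool 1 was the highest and the groups overlapped. The multifunctional proteins follow the oxidases. Hsd17b4, which handles branched and very long chains, had 10.68 in both WT pools and 10.86 and 10.76 in the Usp2-KO pools, without overlap, a difference of 0.13 (SE 0.073, limma adjusted p = 0.638). Ehhadh, the other multifunctional protein and a PPARA target, had 12.16 and 12.03 in WT and 12.24 and 11.93 in Usp2-KO pools, with the Usp2-KO pools at both ends of the range and a difference of -0.0105 (SE 0.11).

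Among the peroxisomal thiolases were Acaa1b and Scp2, the members with the widest range over the 4 pools. Acaa1b had 8.93 and 9.06 in WT and 9.32 and 9.04 in Usp2-KO pools, a difference of 0.18 (SE 0.10, limma adjusted p = 0.638), with littermate differences of 0.385 and -0.024. Its value stood apart in Usp2-KO pool 1 and lay within the WT range in Usp2-KO pool 2. Acaa1a had 9.26 and 9.25 in WT and 9.39 and 9.29 in Usp2-KO pools, a difference of 0.0815 (SE 0.073), with no overlap. The 2 genes are close paralogs whose transcripts an array may not fully separate, so the split between them is uncertain. Scp2, which encodes a thiolase and a sterol carrier, ran the other way between pools, with 9.73 and 9.52 in WT and 9.65 and 9.90 in Usp2-KO pools, and littermate differences of -0.084 and 0.377.

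Mitochondrial and peroxisomal enzymes did not separate in their median differences. The 17 mitochondrial proteins had a median difference of 0.0585 with 15 above 0, and the 8 peroxisomal enzymes had 0.06325 with 6 above 0. The mitochondrial minus peroxisomal difference of these medians was -0.00475, and it was 0.028 in the pool 1 and 0.02 in the pool 2 littermates. It ran from -0.0505 without WT pool 1 to 0.029 without WT pool 2, so its sign depended on which pool was left out. Both medians were lower in the pool 2 littermates (0.013 mitochondrial and -0.007 peroxisomal) than in the pool 1 littermates (0.11 and 0.082). Without Usp2-KO pool 1 the peroxisomal median was 0.0165 and without WT pool 2 it was 0.039, and the mitochondrial median was 0.0225 without WT pool 1. Without Usp2-KO pool 2 the peroxisomal median was 0.12 and the mitochondrial median 0.094.

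Step by step, the compartments were again alike or ordered either way. For the oxidation that opens the cycle, the median was 0.059 over 4 mitochondrial dehydrogenases and 0.037 over 2 peroxisomal oxidases. For hydration and the further oxidation it was 0.0455 over Echs1, Hadha and Hadh and 0.0595 over Ehhadh and Hsd17b4. For thiolysis it was 0.041 over Hadhb and Acaa2 and 0.15 over Acaa1a, Acaa1b and Scp2. For double bonds it was 0.094 over Eci1 and Decr1 and 0.022 over Decr2 and Eci2, the latter of both compartments. In the pool 2 littermates these double bond medians were 0.09 and -0.0545, and in pool 1 they were 0.098 and 0.099. The thiolysis medians were 0.164 mitochondrial and 0.124 peroxisomal in pool 1, and -0.082 and 0.039 in pool 2. Those of hydration and the further oxidation were 0.045 and 0.1235 in pool 1, and 0.025 and -0.0045 in pool 2. The order of the compartments thus changed between littermate pools in these steps. In the opening oxidation it did not, with 0.0905 and 0.082 in pool 1 and 0.0275 and -0.0085 in pool 2. Both Usp2-KO pools lay above both WT pools for 8 of the 17 mitochondrial and 2 of the 8 peroxisomal genes. The share of each class was 47.1% and 25%, against 19.8% of all genes and 26.5% of those above the median signal. The peroxisomal share, which rests on 8 genes, was thus near that of genes above the median signal. Signal was not matched for either class. The mean log2 level in WT pool 1 was 9.40 for the genes above the median signal, 10.56 for the peroxisomal and 11.17 for the mitochondrial ones.

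Genes that PPAR receptors induce in fasting and lipid load had the largest gap between the littermate comparisons among the classes of members. Pdk4, a kinase that shuts pyruvate out of oxidation, had 8.96 and 8.90 in WT and 9.17 and 9.01 in Usp2-KO pools, a difference of 0.16 (SE 0.080, limma adjusted p = 0.591). Angptl4, a secreted inhibitor of lipoprotein lipase, had 9.49 and 9.63 in WT and 9.72 and 9.64 in Usp2-KO pools, a difference of 0.12 (SE 0.078). Neither gene overlapped between the groups, though WT pool 2 and Usp2-KO pool 2 of Angptl4 were nearly equal. Vnn1, a pantetheinase that releases the vitamin part of coenzyme A precursors, had 11.29 and 11.37 in WT and 11.53 and 11.30 in Usp2-KO pools, a difference of 0.085 (SE 0.090). Plin2, a coat protein of lipid droplets, differed by -0.0155 (SE 0.075), with littermate differences of 0.031 and -0.062.

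The thioesterases Acot1 and Acot2 split acyl-CoA into free acid and coenzyme A in the cytosol and the mitochondrion. Acot1 had 7.91 and 7.95 in WT and 8.16 and 7.97 in Usp2-KO pools, a difference of 0.13 (SE 0.084). Acot2 had 11.27 and 11.40 in WT and 11.28 and 11.33 in Usp2-KO pools, a difference of -0.028 (SE 0.077). Only Acot1 was without overlap, and its value in Usp2-KO pool 2 was 0.013 above that of its littermate pool. They are close paralogs and neighbours, and the files do not show whether their probes are shared, so the split between them is uncertain too. Over these thioesterases and the 4 genes before them, the median littermate difference was 0.22 in pool 1 and -0.0245 in pool 2.

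Peroxins among the members were Pex5, the receptor that imports most matrix proteins, Pex14, its docking partner in the membrane, and Pex11a, which drives peroxisome elongation and responds to PPARA. Pex11a had 10.67 and 10.69 in WT and 10.81 and 10.75 in Usp2-KO pools, without overlap, a difference of 0.10 (SE 0.071, limma adjusted p = 0.716). Pex5 differed by 0.043 (SE 0.089) and Pex14 by -0.0075 (SE 0.077). The littermate differences of Pex5 were 0.167 and -0.081, and those of Pex14 were -0.11 and 0.095, so in both the pools ran in opposite directions.

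Other genes of these pathways, from 6 lists that hold none of the 35, gave medians below and above the 0.0645 of the members. Of 17 other mitochondrial fatty acid genes 11 were above 0 (median 0.024), of 18 other peroxisomal oxidation genes 11 (median 0.0205), of 15 other peroxisomal enzymes 10 (median 0.0915) and of 11 other peroxins 8 (median 0.0505). Of 10 genes of fatty acid uptake and activation 7 were above 0 (median 0.023), and of 13 PPAR receptors and coregulators 8 (median 0.0155). Together 55 of the 84 genes were above 0, or 65.5%, against 47.5% of all genes and 56.2% of those above the median signal. None of these genes passed the adjusted threshold in limma or with the littermate block. At an unadjusted p under 0.05, 4.76% of these 84 genes were higher and 2.38% lower, against 5.22% and 3.88% of all genes. The higher genes were Acot9, Acot4, Hao1 and Pex2, and the lower ones were Fabp1 and Far2.

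Both Usp2-KO pools lay above both WT pools for 25 of the 84 genes of these lists and below them for 6, or 29.8% and 7.14%, against 19.8% and 19.1% of all genes and 26.5% and 13.2% of those above the median signal. Pecr, a peroxisomal enoyl-CoA reductase, had 11.64 and 11.66 in WT and 11.80 and 11.81 in Usp2-KO pools, a difference of 0.154 (SE 0.070). Pex2, a ubiquitin ligase of the peroxisomal membrane, differed by 0.16 and Pex7, the receptor for a less common import signal, by 0.14. Acot4, a peroxisomal thioesterase, differed by 0.18 and Acot9, a mitochondrial one, by 0.235. Hao1, a peroxisomal hydroxyacid oxidase, differed by 0.18, at log2 values between 4.64 and 4.86. Fabp1, a fatty acid-binding protein, had 4.87 and 4.84 in WT and 4.55 and 4.52 in Usp2-KO pools, a difference of -0.32 (SE 0.070, limma adjusted p = 0.286). Its values lay far below the array median of 7.44 to 7.46, and the files hold no detection calls.

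The other genes of smallest p in these lists included enzymes of activation and coactivators. Acsl5, which activates long-chain fatty acids, differed by 0.1175 and Pccb, a subunit of propionyl-CoA carboxylase, by 0.135. Far2, a peroxisomal reductase of ether lipid synthesis, differed by -0.24 with 6.07 and 6.11 in WT and 5.74 and 5.96 in Usp2-KO pools. Ppargc1a and Ppargc1b, coactivators of mitochondrial and PPAR target genes, differed by 0.0865 and 0.0935, and both Usp2-KO pools lay above both WT pools in each. Their unadjusted limma p-values were 0.249 and 0.212.

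Ketone body genes and further PPARA targets had a median of 0.066 over 10 measured genes, of which 7 were above 0. Of all genes 47.5% were above 0, and of those above the median signal 56.2%. Txnip, a regulator of glucose uptake, differed by 0.169 (SE 0.070) and Ucp3, a mitochondrial carrier, by -0.23 (SE 0.080), both with an unadjusted limma p under 0.05. In the tricarboxylic acid cycle, a mitochondrial pathway that the set does not include, 11 of 16 genes were above 0, with a median of 0.053 and littermate medians of 0.089 and 0.0265. Its median thus lay close to the 0.0585 of the mitochondrial oxidation genes. Both Usp2-KO pools lay above both WT pools for 8 of its 16 genes, or 50%, and below them for 2. The share above was 42.9% for the members, 19.8% for all genes and 26.5% for those above the median signal, so it was not particular to the members. At an unadjusted limma p under 0.05, 3 of the 16 were higher and 1 lower, against 5.22% and 3.88% of all genes. Dld, the dihydrolipoamide dehydrogenase, had 9.25 and 9.18 in WT and 9.54 and 9.65 in Usp2-KO pools, a difference of 0.38 (SE 0.075, limma adjusted p = 0.286). With the littermate block its adjusted p was 0.02, and over 14 alternatives it ran from 0.02 to 0.614. The p-values of the block fit rest mainly on a variance shared over all genes, not on that of Dld itself. Suclg2, a subunit of succinyl-CoA ligase, differed by 0.27 (SE 0.074, limma adjusted p = 0.34).

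**Figure D4:**
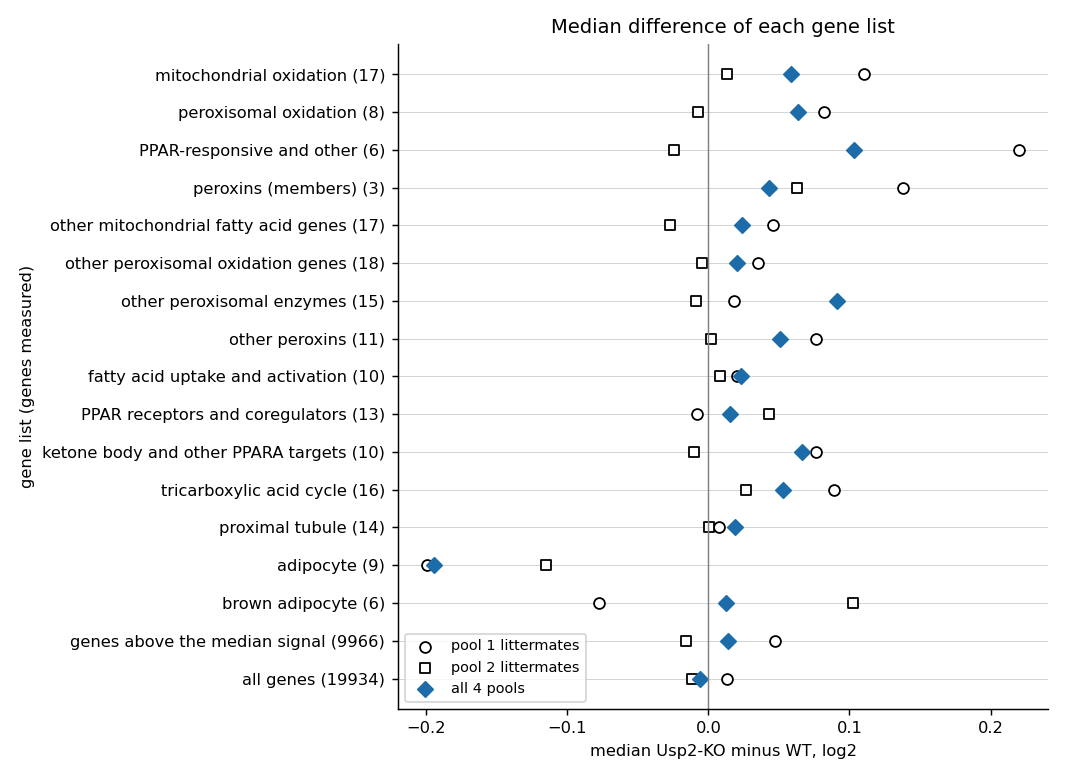
Median Usp2-KO minus WT log2 difference (x axis) of each gene list (rows, genes measured in brackets) over all 4 pools (diamonds), in the pool 1 littermates (circles) and in the pool 2 littermates (squares). The median of the mitochondrial oxidation genes is 0.0585 and that of the peroxisomal genes 0.06325, and in both the circle lies to the right of the square.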

How the data were processed

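The authors deposited log2 expression values made with RMA, per the submitters' processing notes (version, software, annotation and genome build not given in the sources used here). RMA equalises the arrays' distributions, so a shift common to all genes would not be seen. An Affymetrix whole-transcript array was hybridised with target from 300 ng of RNA of each pool, per the labels' protocols. Of 28270 rows, 21780 carried 1 gene symbol in the platform annotation, 1617 several and 4873 none listed; the row with the highest mean per symbol gave 19934 genes, with no filter on signal. All 35 members passed both signal filters tried as alternatives. The genotypes were compared by limma 3.58.1 under R 4.3.3 (lmFit, eBayes, 8.87 total degrees of freedom), with p adjusted by Benjamini-Hochberg over all genes, and the code was tested on simulated data. The series' design text states that littermates were kept in step between pools, so same-numbered pools are pairs; their deviations from the group means correlated at -0.121 across genes. The block on pool number was run beside the fit without it. In the block fit the variance shared over genes carried 90.6 degrees of freedom, against 6.87 without the block. Its p-values therefore rest mainly on that shared variance and little on the spread of the gene itself. Members, lists and tests were chosen with earlier results of these data known. All members and Usp2 are named, and in each pathway list the 2 genes of smallest p. Promoters are from RefSeq, matched by symbol; protein ends are not analysed here. Precision is limited by the 4 arrays. The figures were drawn with matplotlib 3.10.9.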

Additional observations from a re-analysis of the deposited data

How the results depend on the processing

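Over all 14 alternatives, among them the littermate block, no member passed the threshold, and Usp2 passed in each (-4.08 to -4.00 with a pool left out). The count over all genes, 1, became 153 with the littermate block, 18 with an intensity trend, 7 with either signal filter, 2 at an adjusted p under 0.10 and 1 to 2 with a pool left out. The block with crossed pool numbers, chosen after seeing the data, gave 1 gene and no member. Of the 35 members and 16 pathway genes named, Dld alone changed its call under the littermate block (adjusted p = 0.02). With a pool left out, the lone pool is assumed to vary like the others. Without Etfa, a choice made after seeing the data, the members' median was 0.0615. The mitochondrial minus peroxisomal median was 0.0067 with repeated quantile normalization, -0.023 with Eci2 counted as peroxisomal, and between -0.0505 and 0.029 with a pool left out. Of the 35 members, 22 kept their direction in every alternative, Etfa between 0.30 and 0.36 with a pool left out. The other 13 changed sign when 1 pool was left out, between -0.0955 and 0.0075 for Cpt1a, -0.031 and 0.148 for Cpt2, -0.0425 and 0.23 for Slc25a20, -0.055 and 0.08 for Hadhb, -0.006 and 0.035 for Etfb, -0.0305 and 0.17 for Acaa2, -0.0475 and 0.1045 for Acox3, -0.164 and 0.143 for Ehhadh, -0.094 and 0.038 for Acot2, -0.0295 and 0.1995 for Vnn1, -0.0755 and 0.0445 for Plin2, -0.075 and 0.161 for Pex5, and -0.0605 and 0.0455 for Pex14. Hadhb was at -0.01175 with repeated quantile normalization, and Ehhadh at 0.00125 and Pex14 at 0.00425 with arrays centred on their medians. The cause was not tested. With 2 pools per genotype, SEs of members were 0.070 to 0.11, so differences of the size of most members cannot be told from 0.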
